A study of Mus musculus with 18 samples.

Results

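The subject here is how the effect of a Csrp3 knockout on the left ventricle differed between 10 and 3 weeks of age. For each gene the shift was the log2 difference between KO and WT at 10 weeks minus the same difference at 3 weeks. It used 12 of the 18 libraries of the series, 3 in each of 4 groups. The groups were WT and MLP knockout (KO) male mice on the 129SVE background, each at 3 and at 10 weeks, and the tissue was the mid wall of the left ventricle. The 6 libraries of 6-week-old WT and KO males took no part in the contrast and are given as further values. The labels do not say that replicates were separate animals, so p-values measure the spread between these samples.

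Csrp3 encodes muscle LIM protein (MLP), a protein of the cardiomyocyte that binds at the Z-disc, the structure that anchors the actin filaments of the sarcomere. Mice without it are an established model of dilated cardiomyopathy, in which the ventricle enlarges and contracts poorly. A failing ventricle is known to return to a foetal-like programme, with more beta myosin heavy chain and natriuretic peptide and less fatty acid oxidation.

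Library totals ran from 14980968 to 21397675 counts. Values per library are given as CPM, counts relative to the library total after scaling by TMM, a normalization that assumes most genes do not change. Csrp3 itself stood at 997, 945 and 1103 CPM in WT at 3 weeks and at 997, 1111 and 1004 CPM in WT at 10 weeks. In the libraries labelled KO it stood at 1122, 2656 and 1499 CPM at 3 weeks and at 2779, 3466 and 1498 CPM at 10 weeks. Each of these 6 libraries held more Csrp3 in CPM than any of the 6 WT libraries of the contrast. WT at 6 weeks stood at 1490, 1230.5 and 1393.5 CPM, all above KO 3 weeks replicate 1. The difference between KO and WT was not called at 3 weeks (edgeR adjusted p = 0.151) and was at 10 weeks (edgeR adjusted p = 0.0138). The labels do not say which part of the gene was targeted. Counts summed over the whole gene thus do not check the genotype, and WT and KO below mean the libraries so labelled, with every direction resting on those labels. The shift of Csrp3 was 0.52 ± 0.46 (SE, n = 3 per group), with edgeR adjusted p = 0.613. The libraries separated by label on the first principal component, which held 40.4% of the variance, and by age on the second, which held 21.3%.

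The KO effect differed between the ages for 484 of 15358 genes tested, or 3.15%, at a Benjamini-Hochberg adjusted p under 0.05 in edgeR's quasi-likelihood test. The shift was upward for 272 genes (1.77%) and downward for 212 (1.38%). The median shift over all genes was 0.00209 on the log2 scale. Of the called shifts, 331 were over 2-fold and 125 over 4-fold. The count depended on single libraries: it was 271 without WT 10 weeks replicate 3 and 1030 without KO 10 weeks replicate 3. In the same fit, KO and WT differed for 1827 genes (11.9%) at 3 weeks and for 3969 (25.8%) at 10 weeks. From 3 to 10 weeks 950 genes (6.19%) rose and 967 (6.3%) fell within WT, and 1366 (8.89%) rose and 1220 (7.94%) fell within KO. For 314 of the 484 genes the KO effect was called at 10 weeks and not at 3 weeks, with 169 shifted up and 145 down. It was called at both ages in opposite directions for 34 genes, and at 3 weeks alone for 66.

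A shift can come from either genotype. It was counted as carried by KO where the 10 against 3 week change within KO was called and was at least 2 times as large on the log2 scale as that within WT, and as carried by WT in the reverse case. By this rule KO carried 122 upward and 86 downward shifts, and WT carried 89 upward and 63 downward shifts. In 39 genes the genotypes changed in opposite directions by like amounts, in 6 they changed in the same direction, and 79 were not assigned. The age changes are the parts of which the shift is made, so they describe it and give it no further support.

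**Figure D1:**
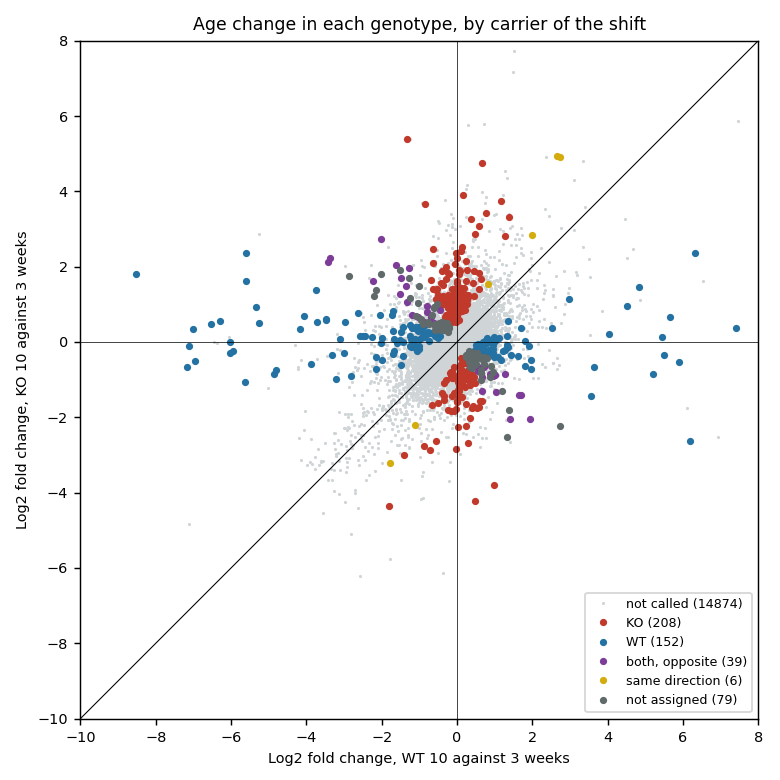
Log2 fold change from 3 to 10 weeks within WT (x axis) and within KO (y axis) for the 15358 genes tested, each point a gene, with the 484 called shifts coloured by carrier. The diagonal marks equal age changes; the 208 KO-carried genes lie along the vertical axis and the 152 WT-carried genes along the horizontal axis.

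Among upward shifts carried by KO were genes of the contractile apparatus and of cardiac stress. Myh7, the beta myosin heavy chain, stood at 1029, 981 and 1309.9 CPM in WT at 3 weeks and 1426, 1568 and 1617 CPM in WT at 10 weeks, against 1534, 1767 and 1575 CPM in KO at 3 weeks and 6952, 14389 and 14572 CPM in KO at 10 weeks. The KO libraries at 10 weeks lay above all others, and KO replicate 1 was the lowest of them. The shift was 2.41 ± 0.32 (SE, n = 3 per group), with edgeR adjusted p = 0.00118, made of a change of 2.88 ± 0.24 (SE) within KO and 0.47 ± 0.22 (SE) within WT. The KO libraries at 6 weeks lay between those ages, at 5271, 3285 and 3387 CPM. Nppa, which encodes atrial natriuretic peptide, stood at 216, 190.4 and 333 CPM in WT at 3 weeks and 234, 298 and 189 CPM in WT at 10 weeks, against 1962, 4020.2 and 2169 CPM and 10314, 17680.0 and 13569 CPM in KO at 3 and 10 weeks. Its KO libraries were above all WT libraries at both ages and rose further without overlap. Its shift of 2.39 ± 0.46 (SE, n = 3 per group) had edgeR adjusted p = 0.0189, but the call was lost without WT 10 weeks replicate 1 or without WT 10 weeks replicate 3, where the adjusted p rose to at most 0.062. Of the 23 tested genes of the stress and foetal cardiomyocyte list these were the 2 called, both upward (1.77% of all genes). The median shift of the list was 0.70, beside 0.00 over all genes. Acta1, skeletal alpha actin and another member, did not pass, at 1.46 ± 0.43 (SE, n = 3 per group) with edgeR adjusted p = 0.0986.

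Of 30 sarcomere and Z-disc genes, 4 shifted up (1.77% of all genes) and 1 down (1.38%). All 5 were carried by KO, and the list's median shift was 0.16. Myot, which encodes the Z-disc protein myotilin, stood at 12.3, 19.6 and 14.8 CPM and 32.7, 39.1 and 32.8 CPM in WT at 3 and 10 weeks, and at 23.5, 24.9 and 44.2 CPM and 429.9, 493 and 308 CPM in KO. The KO libraries at 10 weeks were all far above the remaining 9, and WT also rose with age. The shift was 2.57 ± 0.36 (SE, n = 3 per group), with edgeR adjusted p = 0.00269. Tcap, telethonin, which caps titin at the Z-disc and is known to bind MLP, stood at 842, 926 and 968 CPM and 473, 581 and 689 CPM in WT at 3 and 10 weeks, and at 889, 471 and 799 CPM and 1553, 1735 and 2409 CPM in KO. At 3 weeks WT and KO overlapped, while at 10 weeks every KO library was above every WT library. At 6 weeks WT stood at 1631, 1328 and 1646 CPM, above WT at both other ages, and KO at 1727, 1974 and 1912 CPM. The shift of 2.05 ± 0.32 (SE, n = 3 per group), with edgeR adjusted p = 0.0045, combined 1.40 ± 0.23 (SE) within KO and -0.65 ± 0.23 (SE) within WT. Tpm2, beta tropomyosin, was already higher in KO at 3 weeks, at 98.2, 125 and 91.1 CPM against 16.8, 14.6 and 19.8 CPM in WT, and reached 338, 447 and 365 CPM in KO at 10 weeks against 15.9, 11.8 and 10.8 CPM. No KO library overlapped a WT library at either age, and the shift was 2.28 ± 0.24 (SE, n = 3 per group), with edgeR adjusted p = 5.8e-05. Myom2, an M-band protein, also shifted up, by 0.79. Fhl2, a LIM-domain protein of the sarcomere, went the other way: KO libraries stood at 1847, 2126 and 1882 CPM at 3 weeks and 1082, 1168 and 1124 CPM at 10 weeks, and WT libraries at 1728, 1715 and 1759.5 CPM and 1605, 1539 and 1533 CPM. The KO libraries at 10 weeks were the lowest of the 12, and the shift was -0.64 ± 0.13 (SE, n = 3 per group), with edgeR adjusted p = 0.0144.

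Atrial transcripts were uneven between the KO libraries. Myl7, the atrial myosin light chain, stood at 0.476, 1.16 and 71.8 CPM in KO at 3 weeks and 637, 1.9 and 3.44 CPM in KO at 10 weeks, against 6.79, 0.328 and 12.7 CPM and 0.835, 16.8 and 0.115 CPM in WT. KO 3 weeks replicate 3 and KO 10 weeks replicate 1 stood apart for it, as they did for Myl4 and Sln. Leaving out both libraries gave 456 calls. The levels of the 11 tested atrial genes were summed. The sum was 798.6 to 984 CPM in WT at 3 weeks and 809.9 to 1054 CPM at 10 weeks. In KO it was 2955 to 5136 CPM at 3 weeks and 15739.9 to 20134 CPM at 10 weeks. Nppa and Pam, the listed gene for a peptide-amidating enzyme, made up most of this sum in every library. In KO 10 weeks replicate 2 they stood at 17680 and 2377 CPM. The sum thus restates their levels, and the part of atrial content in their shifts was not tested. Pam stood at 502, 588 and 539 CPM and 583, 628 and 539 CPM in WT at 3 and 10 weeks and at 912, 1044 and 954 CPM and 3366, 2377 and 2080.4 CPM in KO. All KO libraries lay above all WT libraries and the KO groups did not overlap, with a shift of 1.32 ± 0.21 (SE, n = 3 per group) and edgeR adjusted p = 0.00245. In bulk tissue, fewer cells of a type and less RNA per cell cannot be told apart.

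Other upward shifts carried by KO fell outside the contractile lists. Abat, which encodes the transaminase that breaks down GABA, stood at 10.8, 13.2 and 12.4 CPM in KO at 3 weeks and 51.7, 48.9 and 51.3 CPM in KO at 10 weeks, with WT at 4.87, 6.89 and 6.79 CPM and 6.53, 5.37 and 5.84 CPM. The KO groups did not overlap each other or WT, and the shift was 2.12 ± 0.21 (SE, n = 3 per group), with edgeR adjusted p = 3.8e-05. Slc2a1, the glucose transporter GLUT1, stood at 18.5, 15.1 and 13.2 CPM and 40.5, 64.4 and 33.4 CPM in KO at 3 and 10 weeks and at 11.3, 10.7 and 15 CPM and 9.13, 11.5 and 6.99 CPM in WT. Only at 10 weeks did KO stand clear of WT, and the shift was 1.98 ± 0.35 (SE, n = 3 per group), with edgeR adjusted p = 0.00682. Gpx3, a secreted glutathione peroxidase, shifted by 1.44 ± 0.26 (SE, n = 3 per group), with edgeR adjusted p = 0.00768. Psca, a small cell-surface antigen first described in prostate, was below 2 CPM in 9 libraries and at 34.8, 54.5 and 62.3 CPM in KO at 10 weeks, a shift of 6.72 ± 0.66 (SE, n = 3 per group) with edgeR adjusted p = 4.5e-05. Ryr3, a ryanodine receptor that is minor in the heart, reached 21.8, 53.6 and 11.7 CPM there, and its call was lost in 7 of 12 fits that left out a library, with an adjusted p of at most 0.11. Nlrc3, an NLR-family protein, shifted by 2.34 ± 0.28 (SE, n = 3 per group), with edgeR adjusted p = 0.000171, from a KO level that was above WT at 3 weeks already.

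For Gstm2 and Igsf1 the KO effect changed sign. Gstm2, a glutathione S-transferase, stood at 29.2, 20.1 and 27.6 CPM in KO and 56.7, 45.7 and 51.9 CPM in WT at 3 weeks, and at 66.2, 66.5 and 70 CPM in KO and 46.7, 50.7 and 49.9 CPM in WT at 10 weeks. KO was below WT without overlap at 3 weeks and above it without overlap at 10 weeks. WT did not change past the test from 3 to 10 weeks. At 6 weeks WT stood higher than at both, at 79.8, 78.3 and 68 CPM, and KO at 39.2, 43.4 and 49.2 CPM. The shift was 1.46 ± 0.19 (SE, n = 3 per group), with edgeR adjusted p = 0.000369. Igsf1, an immunoglobulin-superfamily membrane protein, moved in the same way, with log2 differences between KO and WT of -0.68 at 3 weeks and 1.30 at 10 weeks and edgeR adjusted p = 0.000329 for the shift.

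Downward shifts carried by KO included receptors, channels and regulators. Ramp1, a receptor-modifying protein that with its partner forms the receptor for calcitonin gene-related peptide, stood at 15.7, 16.4 and 14.8 CPM in KO at 3 weeks and 4.98, 1.23 and 1.22 CPM at 10 weeks, with WT at 8.24, 6.66 and 9.81 CPM and 7.86, 13.2 and 9.23 CPM. KO was above WT at 3 weeks and below it at 10 weeks without overlap, and the shift was -2.98 ± 0.57 (SE, n = 3 per group), with edgeR adjusted p = 0.0144. Dbh, the enzyme that makes noradrenaline, stood at 2.34, 2.7 and 3.67 CPM and 0.281, 0.491 and 0.408 CPM in KO and 8.53, 6.33 and 8.61 CPM and 5.65, 7.81 and 9.45 CPM in WT at 3 and 10 weeks. KO was lower at both ages and fell further, with a shift of -2.81 ± 0.42 (SE, n = 3 per group) and edgeR adjusted p = 0.00157. Dbh was also the 1 gene called of 9 tested in the Schwann and nerve list, beside 1.38% of all genes shifted down. The summed level of that list was 84.55 to 104.6 CPM in KO at 3 weeks and 71.59 to 83.4 CPM in KO at 10 weeks. In WT it was 81.23 to 93.11 CPM and 52.89 to 55.05 CPM, and its part in the fall of Dbh was not tested. Kcne1, a subunit of the slow delayed rectifier potassium channel, fell with age in both genotypes, from 36.4, 28.2 and 44.3 CPM to 9.77, 13.3 and 7.74 CPM in WT and from 44.5, 37.8 and 21.5 CPM to 1.26, 2.33 and 1.46 CPM in KO. The fall in KO was the larger, with a shift of -2.53 ± 0.44 (SE, n = 3 per group) and edgeR adjusted p = 0.00871.

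Grip2, a PDZ-domain scaffold protein, stood at 42.2, 49.8 and 35.6 CPM and 13.5, 14.9 and 14.9 CPM in KO at 3 and 10 weeks, and at 41.8, 43.6 and 53.9 CPM and 79.3, 64.7 and 74.4 CPM in WT. The groups overlapped at 3 weeks and were widely separate at 10 weeks, and the shift was -2.21 ± 0.20 (SE, n = 3 per group), with edgeR adjusted p = 1.3e-05. Cited4, a transcriptional co-regulator that exercise is known to raise in the heart, shifted by -2.18 ± 0.29 (SE, n = 3 per group), with edgeR adjusted p = 0.000734, and KO libraries lay above WT at 3 weeks and below it at 10 weeks. Lingo3, a leucine-rich-repeat membrane protein, shifted by -2.28, Pxdn, a peroxidase of the matrix, by -1.02, and Wrnip1, a protein of DNA replication, by -1.08.

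A further set was picked out after its values were seen. Beside its list counts, 1.77% of all genes shifted up and 1.38% down. Ppargc1a, which encodes PGC-1 alpha, a coactivator that drives mitochondrial and oxidative genes, stood at 155, 222 and 127 CPM in KO at 3 weeks and 64.2, 58.6 and 45.4 CPM in KO at 10 weeks, against 63.9, 80 and 55.5 CPM and 75, 63.5 and 61 CPM in WT. All KO libraries were above WT at 3 weeks, and the groups were no longer separate from WT at 10 weeks. The shift was -1.59 ± 0.28 (SE, n = 3 per group), with edgeR adjusted p = 0.00704. The related Ppargc1b shifted by -1.03 ± 0.21 (SE, n = 3 per group), with edgeR adjusted p = 0.0147, and these were the 2 called of 13 genes for PGC-1, ERR and PPAR regulators. Of 14 adrenergic and catecholamine genes 2 shifted down and 1 up. Adra1b, an alpha-1 adrenergic receptor, shifted by -1.17 ± 0.20 (SE, n = 3 per group), with edgeR adjusted p = 0.00398. The second downward gene was Dbh. Of 8 mitochondrial calcium uniporter genes 2 shifted up and none down. Among them was Micu2, a gatekeeper of that channel, at 0.73, and its call was lost in 5 of 12 fits that left out a library, with an adjusted p of at most 0.075. Of 12 tropomyosin and troponin genes 2 shifted up, Tpm2 and Tpm3-rs7, and 1 down. Tpm3, another tropomyosin, shifted by -0.76, with edgeR adjusted p = 0.0143, while Tpm2 rose with age in KO.

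**Figure D2:**
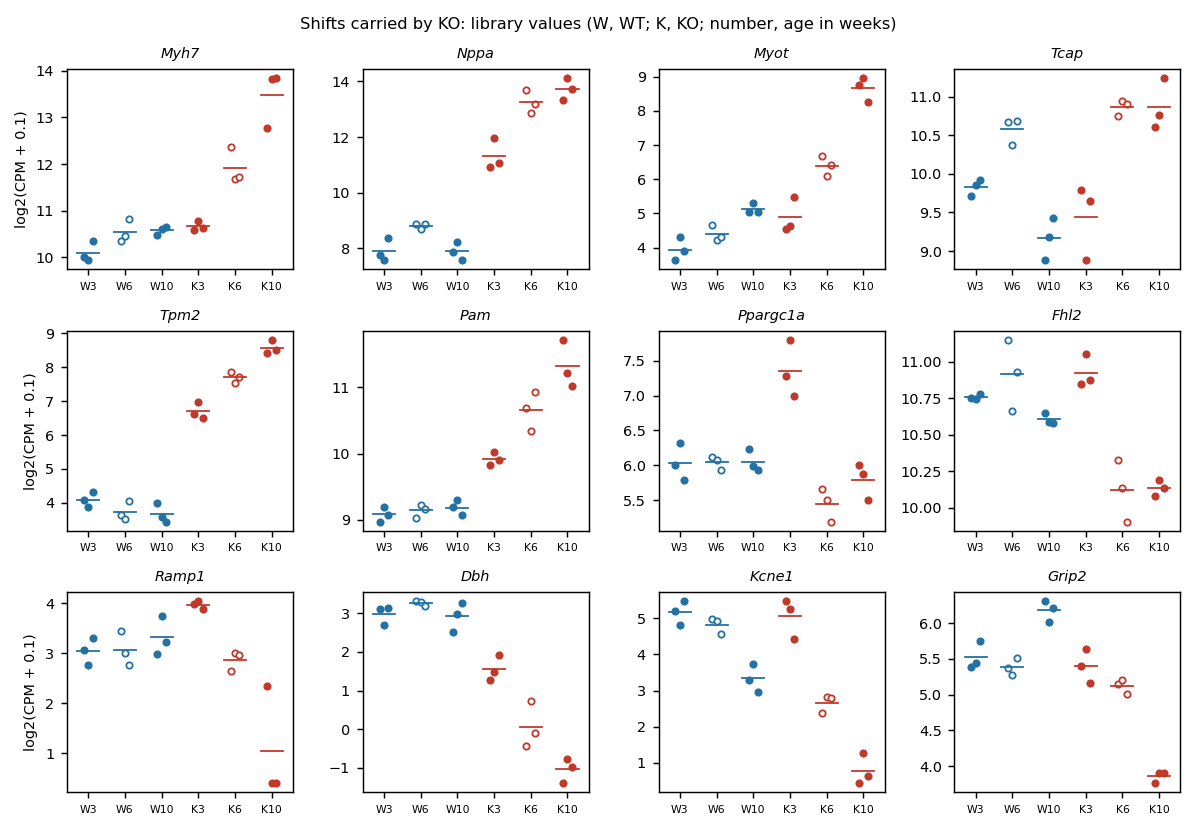
Level on the log2(CPM + 0.1) scale in each library for 12 genes whose shift was carried by KO; each point is 1 library, each line the mean of 3, blue WT and red KO, with open points for the 6-week libraries outside the contrast. In Myh7 the 3 KO libraries at 10 weeks lie above all others, and in Dbh they lie below all others.

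Shifts carried by WT had another shape. Pygl, the liver form of glycogen phosphorylase, stood at 68.8, 75.6 and 74.3 CPM in WT at 3 weeks and 4.27, 4.15 and 3.78 CPM in WT at 10 weeks, with KO at 7.57, 4.46 and 5.11 CPM and 7.09, 6.62 and 8.33 CPM. WT at 3 weeks was the one group of the 4 that stood high, and the shift was 4.52 ± 0.25 (SE, n = 3 per group), with edgeR adjusted p = 5.0e-08. WT at 6 weeks was high as well, at 80.9, 51 and 62.1 CPM. Ptprn2, a phosphatase-like protein of dense-core vesicles, held 517 counts over the 3 WT libraries at 3 weeks and 1 at 10 weeks, a ratio of 498 with a 95% exact counting interval from 89 to 19700, and 7 and 19 counts in KO at 3 and 10 weeks. Kcnj14, an inward rectifier potassium channel, stood at 32.5, 40 and 43.8 CPM in WT at 3 weeks, 62, 63 and 61.2 CPM at 6 weeks and 0.589, 0.775 and 1.03 CPM at 10 weeks, and at 1.17, 3.19 and 1.07 CPM, 12, 8.9 and 8.88 CPM and 7.93, 11.8 and 7.75 CPM in KO at the same ages. WT was above KO without overlap at 3 weeks and below it without overlap at 10 weeks, and the shift was 7.98 ± 0.51 (SE, n = 3 per group), with edgeR adjusted p = 1.7e-06. Kcnj14 and Ush1c lie on chromosome 7, as does Csrp3, at 3.01 and 2.59 Mb from it. Kcnj11, a WT-carried gene given below, lies between Kcnj14 and Ush1c, and the WT-carried transcript Gm9860 lies within Ush1c. Ush1c, which encodes the scaffold protein harmonin, stood at 30.9, 30.7 and 35.6 CPM and 3.44, 4.48 and 4.18 CPM in WT and at 21.7, 18.6 and 14.3 CPM and 11.4, 16.4 and 16.6 CPM in KO at 3 and 10 weeks. WT fell from above KO to below it without overlap, and the shift was 2.71 ± 0.26 (SE, n = 3 per group), with edgeR adjusted p = 2.6e-05.

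In a second form of this pattern KO at both ages lay nearer to WT at 3 weeks, and WT at 10 weeks stood alone. Tuba1c, an alpha tubulin, stood at 30.5, 32.2 and 29.2 CPM and 8.1, 8.14 and 6.82 CPM in WT and at 22.4, 24.6 and 26.4 CPM and 24.4, 28.3 and 26.3 CPM in KO at 3 and 10 weeks. The 3 WT libraries at 10 weeks were the lowest of the 12 by a wide margin, and the shift was 2.10 ± 0.17 (SE, n = 3 per group), with edgeR adjusted p = 5.0e-06. Fam81a fell within WT from 41.6, 49.1 and 44.6 CPM to 8.3, 8.08 and 8.25 CPM, with KO at 27.9, 32.9 and 31 CPM and 30.3, 38.8 and 32.9 CPM, and shifted by 2.61 ± 0.17 (SE, n = 3 per group), with edgeR adjusted p = 5.9e-07. Hist1h2al, annotated as a processed pseudogene of the histone H2A family, held 314 counts over the 3 WT libraries at 3 weeks and 3 at 10 weeks, a ratio of 101 with an interval from 34.2 to 492. The same libraries in KO held 729 and 764 counts. Such intervals cover counting error only. Hist1h2al, Hmga1b, Rpl15-ps2, Rbpj-ps3 and Tpm3-rs7, all among the largest upward shifts carried by WT, belong to families of near-identical copies, and how the authors' counting shared reads among copies is not given in the sources used here, so their values are uncertain.

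Downward shifts carried by WT rose within WT. Tbc1d4, the Rab GTPase-activating protein AS160 that regulates glucose transporter traffic, stood at 34.6, 42.1 and 40.7 CPM in WT at 3 weeks and 120.0, 129.8 and 111 CPM at 10 weeks, with KO at 29.5, 40.8 and 35.5 CPM and 29.2, 22 and 30.1 CPM. WT at 10 weeks was high alone, and the shift was -2.0 ± 0.20 (SE, n = 3 per group), with edgeR adjusted p = 4.5e-05. Hrasls, a phospholipid-metabolizing acyltransferase, rose in both genotypes, from 0.145, 0.375 and 0.503 CPM to 24.7, 23.6 and 32.4 CPM in WT and from 1.38, 2.48 and 1.76 CPM to 10, 11.2 and 7.46 CPM in KO. KO was above WT at 3 weeks and below it at 10 weeks, each time without overlap, and the shift was -3.96 ± 0.44 (SE, n = 3 per group), with edgeR adjusted p = 9.1e-05. Eps8l1, a relative of the actin regulator EPS8, was under 1 CPM in 9 libraries and stood at 25.3, 14 and 22.2 CPM in WT at 10 weeks, with edgeR adjusted p = 0.000734. Plbd1, a phospholipase B-like protein, shifted by -1.49 ± 0.19 (SE, n = 3 per group), with edgeR adjusted p = 0.000369. Akap1, which anchors protein kinase A at mitochondria, rose within WT from 138, 151 and 163 CPM to 285, 285 and 304 CPM and stood at 203, 171 and 158 CPM and 112, 148 and 171 CPM in KO, a shift of -1.25 ± 0.20 (SE, n = 3 per group) with edgeR adjusted p = 0.00245. Kcnj11, the pore subunit of the ATP-sensitive potassium channel, shifted by -1.48 ± 0.27 (SE, n = 3 per group), with edgeR adjusted p = 0.00867.

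**Figure D3:**
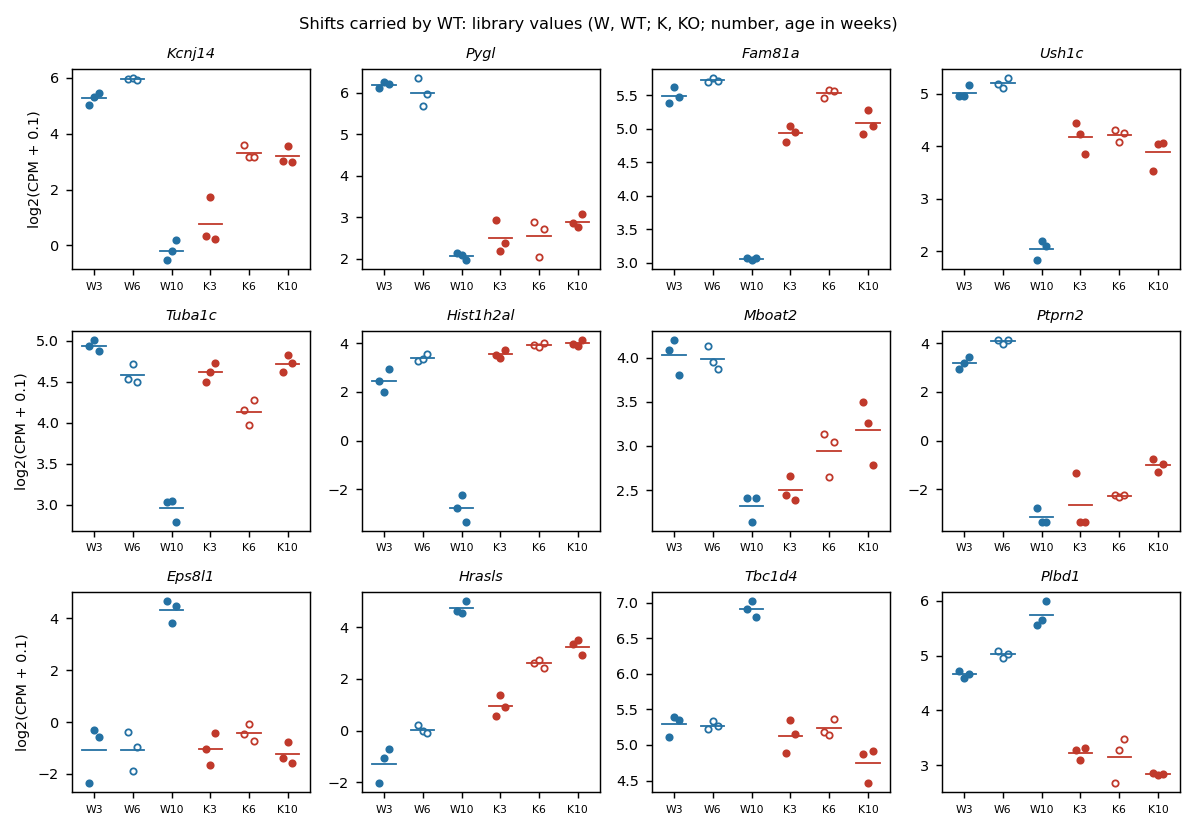
Level on the log2(CPM + 0.1) scale in each library for 12 genes whose shift was carried by WT; each point is 1 library, each line the mean of 3, blue WT and red KO, with open points for the 6-week libraries. In all 12 panels the WT libraries at 10 weeks stand apart from those at 3 and 6 weeks.

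The 6-week libraries, which the contrast did not use, were set beside the 3- and 10-week means of the same genotype. For 138 of the 152 WT-carried genes the 6-week WT mean was nearer to WT at 3 weeks than at 10 weeks on the log2 scale. For the 208 KO-carried genes the 6-week KO mean was nearer to 3 weeks in 112 and nearer to 10 weeks in 96. Both sets of genes were chosen by their change between 3 and 10 weeks. Nearness was not counted over all genes, so these counts do not date the change. In the fit of all 18 libraries, WT at 10 against 6 weeks was called for 133 of the 152 (8.75% of all genes), and WT at 6 against 3 weeks for 16 (5.18% of all genes). For the KO-carried genes the corresponding counts were 127 (12.7% of all genes) and 103 (11.6% of all genes). These contrasts share the 3- or 10-week libraries with the shift and are a description of it.

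Of the 125 shifts of over 4-fold, WT carried 56 and KO carried 38. Of the 56, 29 (51.8%) were protein-coding and 14 (25%) pseudogenes. Over all tested genes 88.5% were protein-coding and 2.71% pseudogenes. Of the 38, 31 (81.6%) were protein-coding and none a pseudogene, which for so few genes is close to the share over all genes. The 56 lay on 18 chromosomes, with 7 (12.5%) on chromosome 12, which held 3.33% of all tested genes. For 55 of them the 6-week WT mean was nearer to WT at 3 weeks. In 25 all 3 KO groups were nearer to WT at 3 weeks, in 21 all 3 were nearer to WT at 10 weeks, and in 10 the KO groups were divided. The labels give no colony or batch for the WT libraries, so age and any other difference between WT at 10 weeks and the younger WT groups cannot be told apart.

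Among the pathway lists, ATF4 and one-carbon stress genes held the highest count of called shifts. ATF4 is a transcription factor of the integrated stress response that raises amino acid synthesis, import and tRNA charging. Of 31 tested genes 8 shifted up (1.77% of all genes) and none down, and the list's median shift was 0.70. KO carried 3 of the 8 and WT carried 2. The list's median change from 3 to 10 weeks was -0.34 within WT and 0.48 within KO. Mthfd2, a mitochondrial folate enzyme, stood at 7.57, 6.71 and 6.29 CPM and 2.41, 2.16 and 2.06 CPM in WT at 3 and 10 weeks, and at 8.79, 6.99 and 5.8 CPM and 24.6, 37.3 and 27.6 CPM in KO. The genotypes overlapped at 3 weeks, after which WT fell and KO rose without overlap. The shift was 3.68 ± 0.28 (SE, n = 3 per group), with edgeR adjusted p = 2.2e-06. Asns, asparagine synthetase, stood at 8.57, 5.39 and 8.08 CPM and 19.3, 18.9 and 18.9 CPM in KO and at 7.86, 6.94 and 6.79 CPM and 5.84, 4.26 and 4.64 CPM in WT. KO at 10 weeks lay above the other libraries of the contrast, with a shift of 1.92 ± 0.26 (SE, n = 3 per group) and edgeR adjusted p = 0.000769. Slc7a5, the large neutral amino acid transporter LAT1, shifted by 1.61 ± 0.24 (SE, n = 3 per group), with edgeR adjusted p = 0.00135, as WT fell and KO rose. The transcription factor Atf5 shifted by 1.29 ± 0.19 (SE, n = 3 per group), with edgeR adjusted p = 0.00174, and the stress protein Nupr1 by 1.35 ± 0.28 (SE, n = 3 per group), with edgeR adjusted p = 0.0144. The call of Atf4 itself, at 0.70 ± 0.17 (SE, n = 3 per group) and edgeR adjusted p = 0.0351, was lost in 10 of 12 fits that left out a library, that of the serine synthesis gene Phgdh in 10 of 12, and that of Aldh18a1, of proline synthesis, in 2 of 12. The highest adjusted p was 0.096, 0.12 and 0.07.

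The cytosolic aminoacyl-tRNA synthetases, which load amino acids onto tRNAs, were listed after their values were seen. Of 20 tested, 5 shifted up (1.77% of all genes) and none down, and the median shift was 0.35. Cars shifted by 0.90 ± 0.16 (SE, n = 3 per group), with edgeR adjusted p = 0.00528, and Gars by 0.72 ± 0.14 (SE, n = 3 per group), with edgeR adjusted p = 0.0119. The other 3 were Aars, Mars and Nars, whose calls were lost in 8 of 12, 9 of 12 and 9 of 12 fits that left out a library. KO and WT did not differ past the test for any of the 20 at 3 weeks (11.9% of all genes did), and KO was higher for 13 at 10 weeks (13.7% of all genes).

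Promoter sequence is shown for called ATF4-list genes that hold the ATF4 and C/EBP composite element, searched as TGATGNAA on both strands from 250 bases before to 50 after the start (RefSeq, GRCm38.p6, first listed start). It was present in 7 of 27 list genes with a promoter, or 25.9%, and in 4.06% of all 27025 promoters and 2.3% of those of tested genes. The genes were listed by their known roles, so this share describes the list and not the shifts. Of the 8 called list genes 7 had a promoter in the table, and 2 of those held it, Asns and Nupr1, whose promoters are at chr6:7693160-7693459 and chr7:126625421-126625720, both on the minus strand. Capitals mark the match, which is a description of the letters and not a site.
Asns: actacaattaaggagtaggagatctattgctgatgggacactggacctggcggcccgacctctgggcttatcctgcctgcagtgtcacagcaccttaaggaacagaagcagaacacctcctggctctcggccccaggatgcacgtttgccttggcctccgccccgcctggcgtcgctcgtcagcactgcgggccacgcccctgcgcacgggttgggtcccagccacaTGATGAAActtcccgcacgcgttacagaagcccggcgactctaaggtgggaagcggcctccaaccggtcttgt
Nupr1: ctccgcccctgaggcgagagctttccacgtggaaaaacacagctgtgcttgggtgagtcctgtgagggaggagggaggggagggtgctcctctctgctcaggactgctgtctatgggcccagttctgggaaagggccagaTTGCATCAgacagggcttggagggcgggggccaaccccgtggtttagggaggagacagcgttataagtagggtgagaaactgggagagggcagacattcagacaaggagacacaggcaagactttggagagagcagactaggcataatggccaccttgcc

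Clock genes shifted in both directions. The clock is a loop in which BMAL1 with CLOCK or NPAS2 activates the Per, Cry and Nr1d genes, whose products repress it. Of 19 tested genes, 3 shifted up (1.77% of all genes) and 3 down (1.38%), and the median shift was 0.42. WT carried 3 of these shifts and KO carried 1. Nr1d1, the repressor REV-ERB alpha, stood at 65.8, 77.9 and 85.6 CPM and 30.1, 31.7 and 28.9 CPM in WT at 3 and 10 weeks, and at 119, 56.9 and 75.8 CPM and 127, 239 and 156 CPM in KO. WT fell and KO rose, so that every KO library was above every WT library at 10 weeks. The shift was 2.39 ± 0.38 (SE, n = 3 per group), with edgeR adjusted p = 0.00549. Nr1d2, REV-ERB beta, shifted by 1.70 ± 0.24 (SE, n = 3 per group), with edgeR adjusted p = 0.000918, carried by WT, and Per1, a repressor of the loop, by 1.39 ± 0.24 (SE, n = 3 per group), with edgeR adjusted p = 0.00529. Cry1, a repressor too, stood at 6.79, 6.94 and 7.67 CPM and 27, 23.4 and 24.6 CPM in WT and at 9.56, 12.1 and 13 CPM and 15.2, 10.6 and 9.2 CPM in KO. KO was higher than WT at 3 weeks and lower at 10 weeks without overlap. WT rose by 1.81 on the log2 scale, while KO changed by 0.01. The shift was thus carried by WT, at -1.80 ± 0.26 (SE, n = 3 per group), with edgeR adjusted p = 0.00101. The call of the activator Npas2, at -1.68 with edgeR adjusted p = 0.0266, was lost in 7 of 12 fits that left out a library, where the adjusted p was at most 0.082. The labels give no time of day at which tissue was taken.

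Of 16 clock genes with a promoter, 5 (31.2%) held an E-box, CACGTG, against 7.24% of all promoters and 10.1% of those of tested genes. A D-box, searched as TTATGNAA, was in 2 (12.5%), against 3.52% and 1.96%. Since the genes were listed as clock genes, these shares too describe the list and not the shifts. Of the called genes, Per1 at chr11:69098699-69098998 on the plus strand held both, which did not overlap, and Cry1 at chr10:85185005-85185304 on the minus strand held an E-box. They are shown because their shifts had opposite signs, with matches in capitals.
Per1: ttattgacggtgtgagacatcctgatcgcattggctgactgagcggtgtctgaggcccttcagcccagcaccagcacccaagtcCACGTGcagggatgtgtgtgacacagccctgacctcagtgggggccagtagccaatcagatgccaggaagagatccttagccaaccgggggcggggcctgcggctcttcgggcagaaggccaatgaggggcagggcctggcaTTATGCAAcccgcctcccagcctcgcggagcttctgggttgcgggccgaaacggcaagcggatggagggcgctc
Cry1: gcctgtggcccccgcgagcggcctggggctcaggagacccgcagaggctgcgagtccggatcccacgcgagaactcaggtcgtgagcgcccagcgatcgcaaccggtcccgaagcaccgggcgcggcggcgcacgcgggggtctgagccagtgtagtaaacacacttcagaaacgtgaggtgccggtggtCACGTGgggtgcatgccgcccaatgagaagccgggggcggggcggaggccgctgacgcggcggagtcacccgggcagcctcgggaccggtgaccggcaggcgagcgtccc

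**Figure D4:**
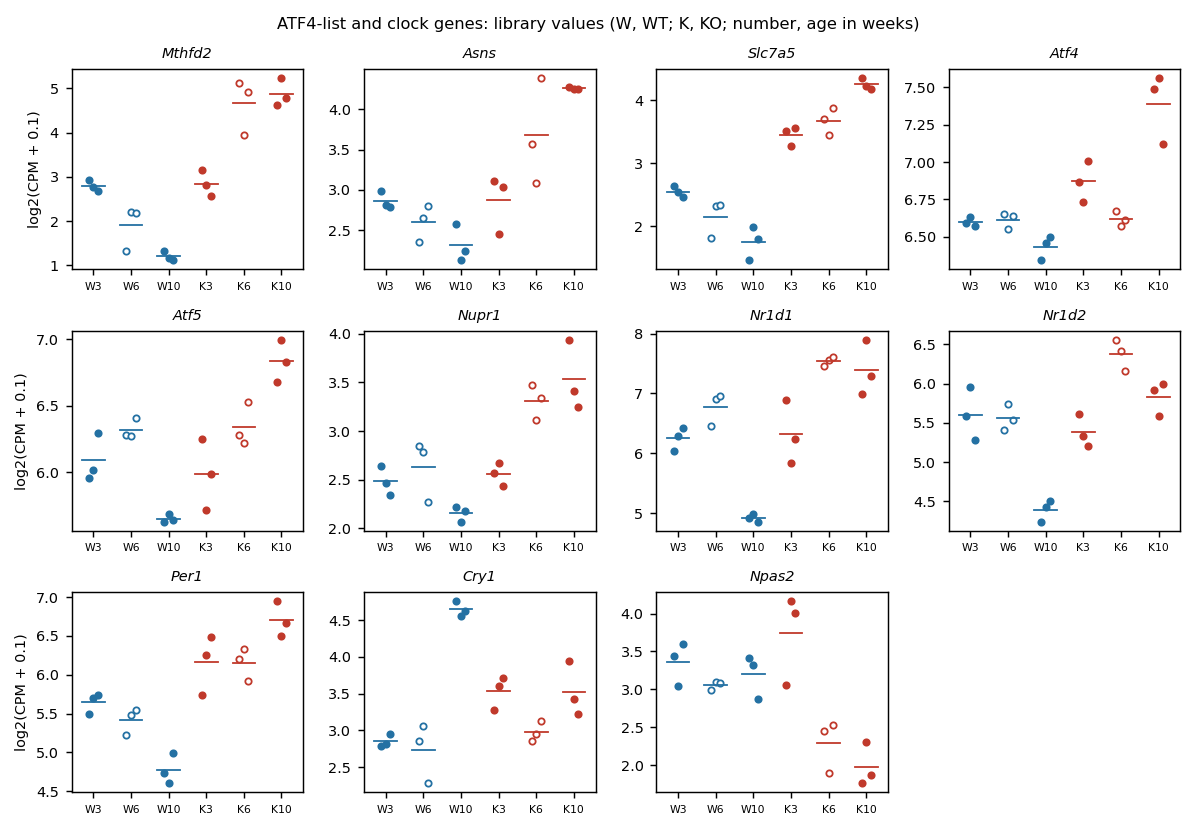
Level on the log2(CPM + 0.1) scale in each library for 6 genes of the ATF4 list (Mthfd2 to Nupr1) and 5 clock genes (Nr1d1 to Npas2); each point is 1 library, each line the mean of 3, blue WT and red KO, with open points for the 6-week libraries. For Mthfd2 and Nr1d1 the WT libraries at 10 weeks are below and the KO libraries at 10 weeks above WT at 3 weeks.

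The called shifts of interferon-induced genes were downward. Of 32 tested, 4 shifted down (1.38% of all genes) and none up, and the median was -0.71. A negative value was seen in 29, beside 7656 of 15358 over all genes, though signs of genes measured in the same libraries are not independent. WT carried 1 of the 4 shifts and KO none. The median change from 3 to 10 weeks was 0.354 within WT and -0.205 within KO. At 3 weeks KO was higher than WT for 13 of the 32 (6.5% of all genes) and lower for 1 (5.4%). At 10 weeks KO was higher for 1 (13.7%) and lower for 4 (12.1%). Rsad2, the antiviral protein viperin, stood at 16.1, 17.2 and 25.5 CPM in KO and 8.53, 8.63 and 8.99 CPM in WT at 3 weeks, and at 12.6, 11.7 and 14.3 CPM and 16.6, 14.8 and 11.5 CPM at 10 weeks. KO was above WT at 3 weeks and overlapped it at 10 weeks, with a shift of -1.32 ± 0.26 (SE, n = 3 per group) and edgeR adjusted p = 0.0112. Cmpk2, a mitochondrial nucleotide kinase that interferon induces, changed sign, with KO minus WT at 0.87 and then -0.45 and edgeR adjusted p = 0.00259. The calls of the factors Irf7 and Stat2, at -1.08 and -1.17, were lost in 5 of 12 and 3 of 12 fits that left out a library, with adjusted p of at most 0.083 and 0.058.

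Of 19 chaperones of the endoplasmic reticulum and genes of its unfolded protein response, 2 shifted down (1.38% of all genes) and none up. All 19 values were negative, beside 7656 of 15358 over all genes, and the list's median was -0.59. The members share the same libraries, so their signs are not independent. The summed level was 2305 to 2325 CPM and 2607 to 2922 CPM in WT at 3 and 10 weeks. In KO it was 2040 to 3204 CPM at 3 weeks, on both sides of WT, and 2082 to 2540 CPM at 10 weeks. The 2 called genes were Manf, a secreted stress protein, at -1.66, and Dnajc3, an HSP70 co-chaperone, at -1.05. Both were sensitive to single libraries, losing the call in 10 of 12 and 8 of 12 fits that left out a library, and KO 3 weeks replicate 2 was the highest for Manf, at 50.4, 139.9 and 82.2 CPM in that group. The direction of these genes was opposite to that of the ATF4 list, and the difference between the lists was not tested.

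Energy metabolism divided by list, beside 1.77% of all genes shifted up and 1.38% down. Of 18 PPAR-responsive genes 3 shifted down and none up, with a median of -0.67: Ucp3, a mitochondrial uncoupling protein, at -2.51; Plin2, a lipid droplet protein, at -0.72; and Acot1, an acyl-CoA thioesterase, at -3.11. Ucp3 and Plin2 lost the call in 8 of 12 and 7 of 12 fits that left out a library. Acot1, the 1 called of 33 fatty acid oxidation genes, has a near-identical neighbour in its family, so its value is uncertain. Fbp2, the muscle fructose bisphosphatase, stood at 8, 7.18 and 7.42 CPM and 20.6, 23.4 and 26.5 CPM in WT and 7.27, 4.29 and 7.2 CPM and 2.95, 2.02 and 2.16 CPM in KO at 3 and 10 weeks, and WT rose as KO fell, with a shift of -3.05 ± 0.30 (SE, n = 3 per group) and edgeR adjusted p = 3.4e-05. None of 47 nuclear oxidative phosphorylation genes shifted, with a median of -0.07, while 20 were lower in KO at 3 weeks (5.4% of all genes) and 34 at 10 weeks (12.1%). None of 13 mitochondrially encoded messenger RNAs shifted, and all 13 were lower in KO at 3 weeks (5.4% of all genes) and 9 at 10 weeks (12.1%). The mitochondrially encoded share of counts was 15.2% ± 2.34 (SD, n = 3) and 14.1% ± 0.846 in WT at 3 and 10 weeks, and 9.47% ± 1.67 and 8.37% ± 1.2 in KO.

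Of 39 extracellular matrix genes 2 shifted up (1.77% of all genes) and 1 down (1.38%). From 3 to 10 weeks 26 of them fell and none rose in WT, and 22 fell and 4 rose in KO, beside 6.3% of all genes falling in WT and 7.94% falling and 8.89% rising in KO. Mfap4, a microfibril-associated protein, stood at 29.1, 18.3 and 28.2 CPM and 8.15, 7.97 and 7.39 CPM in WT at 3 and 10 weeks and at 36.6, 46.5 and 41.8 CPM and 37.2, 38.8 and 30.3 CPM in KO. WT fell and KO did not separate by age, with a shift of 1.45 ± 0.24 (SE, n = 3 per group) and edgeR adjusted p = 0.00306. Col6a3, a collagen VI chain, fell in KO from 144, 116 and 125 CPM to 47.2, 49 and 53.8 CPM, with WT at 72.4, 73.1 and 85 CPM and 68.7, 56.1 and 50.4 CPM, and shifted by -0.96 ± 0.18 (SE, n = 3 per group), with edgeR adjusted p = 0.00815. The second upward gene, Mfap5, also a microfibril-associated protein, shifted by 1.40 and lost the call in 9 of 12 fits that left out a library, with an adjusted p of at most 0.1. Among 14 fibroblast markers 4 shifted up, Mfap5 included, and their summed level was 2287 to 2660 CPM in WT at 3 weeks, 1976 to 2216 CPM in WT at 10 weeks, 2392 to 2551 CPM in KO at 3 weeks and 2408 to 2771 CPM in KO at 10 weeks; its part in the matrix shifts was not tested. Of 8 tested red cell markers 2 shifted up, carried by WT, among them Bpgm, and the summed level of that list was 2348 to 3947 CPM in WT at 3 weeks, 515.4 to 699.8 CPM in WT at 10 weeks, 968.9 to 2143 CPM in KO at 3 weeks and 658.6 to 1446 CPM in KO at 10 weeks. Its part in their shifts was not tested. Of the 31 proliferation genes 28 fell with age in WT (6.3% of all genes) and 29 in KO (7.94%). Ccnd2, cyclin D2, and Mcm6, a replication helicase subunit, shifted up by 0.99 and 1.45.

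**Figure D5:**
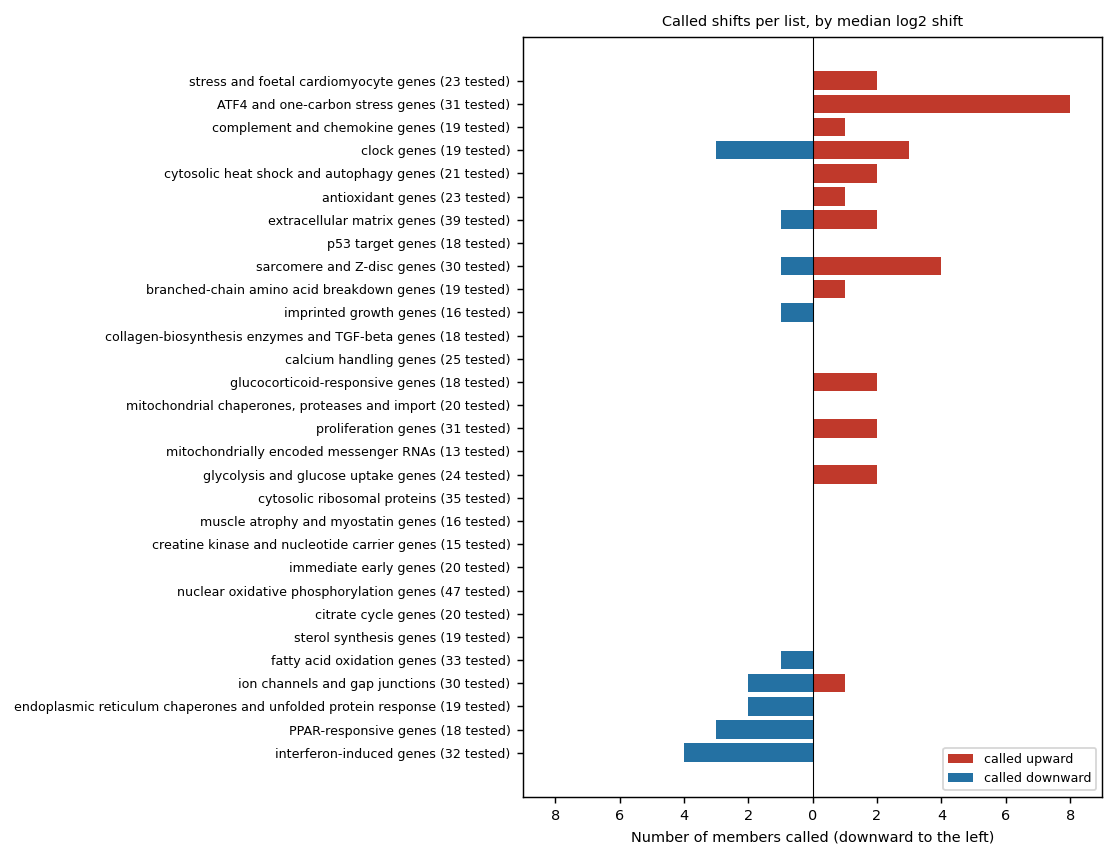
Number of genes with a called upward (right, red) or downward (left, blue) shift in each pathway list, ordered from the lowest median log2 shift at the bottom to the highest at the top. The ATF4 list has 8 upward and no downward calls, and the interferon list has 4 downward and no upward calls.

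The remaining lists held few or no called shifts, beside 1.77% of all genes shifted up and 1.38% down. One gene was called upward in each of the branched-chain amino acid breakdown list (Bcat2, of 19 tested), the complement and chemokine list (Serping1, of 19) and the antioxidant list (Gpx3, of 23). Bcat2 shifted by 0.88 and lost the call without WT 10 weeks replicate 1, and Serping1, at 0.63, lost it in 10 of 12 fits that left out a library. Of 24 glycolysis and glucose uptake genes, Slc2a1 and Pfkp, a phosphofructokinase, shifted up. The call of Pfkp, at 1.0, was lost in 8 of 12 fits that left out a library, with an adjusted p of at most 0.086. Of 21 cytosolic heat shock and autophagy genes, Gabarapl1, an autophagosome protein, shifted by 0.88 ± 0.17 (SE, n = 3 per group), with edgeR adjusted p = 0.00983. Hspa2, an HSP70 chaperone, shifted by 1.03 and lost the call in 9 of 12 such fits, with an adjusted p of at most 0.11. Mt2, a metallothionein, and Per1 were called among 18 glucocorticoid-responsive genes. Mt2 stood at 7.23, 6.52 and 9.24 CPM and 1.92, 1.88 and 1.32 CPM in WT at 3 and 10 weeks and at 58.7, 54.2 and 39.7 CPM and 47.7, 34.9 and 33.9 CPM in KO, so that WT fell while KO stayed high, with a shift of 1.76 ± 0.29 (SE, n = 3 per group) and edgeR adjusted p = 0.00359. Cdkn1c, a growth inhibitor, was called downward among 16 imprinted growth genes, at -0.97, and lost the call in 6 of 12 fits that left out a library, with an adjusted p of at most 0.09. Among 30 ion channel and gap junction genes Kcnj14 shifted up and Kcnj11 and Kcne1 down. No shift was called among the 25 calcium handling genes, 20 citrate cycle genes, 35 cytosolic ribosomal protein genes or 18 p53 target genes. The same held for 18 collagen-biosynthesis and TGF-beta genes, 20 mitochondrial chaperones and proteases, 15 creatine kinase and nucleotide carrier genes, 20 immediate early genes, 19 sterol synthesis genes and 16 muscle atrophy and myostatin genes. None was called among the tested markers of adipocytes (5), skeletal muscle (7), macrophages (14), ventricular cardiomyocytes (8), neutrophils (1), mural cells (13), endothelium (14) or T and NK cells (2). The 5 adipocyte genes had a median shift of 5.46 without a call. Among them Car3, a carbonic anhydrase, held 937, 7 and 4 counts in KO at 10 weeks, with KO replicate 1 far apart, and 3 to 13 counts in KO at 3 weeks and 16 to 71 in WT. The summed level of that list, 388 to 526 CPM in WT and 313 to 571 CPM in KO at 10 weeks, overlapped between the genotypes. In the B cell list Ighm and Igkc shifted up, and in the epicardial list Krt18 did, and whether such cells differed was not tested. The summed level of the B cell list was 17.49 to 24.72 CPM and 13.21 to 14.45 CPM in WT at 3 and 10 weeks and 13.29 to 31.48 CPM and 22.83 to 27.66 CPM in KO. That of the epicardial list was 19.42 to 30.81 CPM and 14.15 to 25.13 CPM in WT and 38.82 to 60.8 CPM and 44.44 to 104 CPM in KO. The calls of Ighm, Igkc and Krt18, at 1.55, 2.73 and 3.09, were lost in 2 of 12, 7 of 12 and 3 of 12 fits that left out a library, with an adjusted p of at most 0.061, 0.11 and 0.065.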

How the data were processed

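The authors deposited raw counts per Ensembl gene for each library, with no normalization. Per the submitters' processing notes, the tools were Trimmomatic 0.36, STAR 2.5.2b, featureCounts and Subread 1.5.2, with the genome build GRCm38. The strand setting and the treatment of multimapping reads are not given in the sources used here, so overlapping, antisense and near-identical genes are uncertain. Symbols came from GENCODE M21 for 49056 of 49315 identifiers. The counts of the 12 libraries (14980968 to 21397675 each) were filtered with filterByExpr (minimum count 10, minimum total 15), TMM-normalized and fitted with edgeR 4.0.16 (R 4.3.3; robust quasi-likelihood, 1 mean per group). P-values were adjusted by Benjamini-Hochberg over all 15358 genes, and a shift passed under 0.05. Each SE was calculated back from the test, as the absolute log2 change divided by the square root of the quasi-likelihood F. The fitting code was tested on simulated data. Alternatives used limma 3.58.1 (voom) and DESeq2 1.42.0, other normalizations and filters, all 18 libraries, a replicate block and leaving out each library. Figures used matplotlib.

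Members and lists were chosen with earlier results of these data known, and the synthetase, PGC-1, uniporter, adrenergic and tropomyosin lists after seeing these values. Named genes were Csrp3; among called genes with established symbols and at least 2 CPM in the highest group, the 12 largest shifts each way, the 6 smallest p per carrier and direction and up to 6 reversed per direction; and up to 3 called per list and direction, or the smallest p where none was called. Myom2 and genes of the ATF4 list beyond that rule were added after their values were seen. A few genes named by these rules are not reported here.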

Additional observations from a re-analysis of the deposited data

Results flagged for a closer look

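The difference between the KO effects at 10 and 3 weeks was itself tested, and 484 genes passed. Among the named genes, 16 had a KO effect called in opposite directions at the 2 ages. Upward, on the log2 scale, the shifts were 10.32 for Ptprn2, 7.98 for Kcnj14, 7.23 for Rbpj-ps3, 4.52 for Pygl, 3.23 for Serpina3n, 2.71 for Ush1c, 2.61 for Fam81a, 2.45 for Mboat2, 1.98 for Igsf1 and 1.46 for Gstm2. Downward they included -3.96 for Hrasls, -1.95 for Inka2, -1.80 for Cry1, -1.39 for Anks1 and -1.32 for Cmpk2. The fitted values of Ptprn2 and Rbpj-ps3 depend on the prior count, since the WT libraries at 10 weeks together held 1 and 2 counts of them.

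Serpina3n, an acute-phase protease inhibitor, stood at 15.2, 15 and 17.2 CPM in WT and 3.98, 6.66 and 2.79 CPM in KO at 3 weeks, and at 6.73, 5.92 and 6.99 CPM in WT and 22.5, 15.9 and 13.7 CPM in KO at 10 weeks. WT was above KO without overlap at 3 weeks and below it without overlap at 10 weeks. Mboat2, a lysophospholipid acyltransferase, stood at 16.9, 18.3 and 13.8 CPM and 5.37, 6.22 and 5.15 CPM in WT and KO at 3 weeks, and at 5.21, 4.32 and 5.21 CPM and 11.2, 9.44 and 6.82 CPM at 10 weeks, which gave the same order of the groups. Anks1, an ankyrin-repeat adaptor, and Inka2, an inhibitor of the kinase PAK4, crossed the other way, from KO above WT to KO below it.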

How the results depend on the processing

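Every call shared with the reported fit kept its direction. The reported counts were 484 calls, 272 up (KO-carried 122, WT-carried 89) and 212 down (86, 63). In the same order they were 1239, 671 (347, 170) and 568 (223, 177) with no filter on low counts, and 981, 548 (260, 154) and 433 (170, 133) with DESeq2. The fit of all 18 libraries gave 909, 445 (KO-carried 205) and 464 (191, 140). An exclusion chosen after seeing the data, of KO 3 weeks replicate 2 and KO 10 weeks replicate 3, in which Ankrd2 and Cnn1 stood apart, gave 1087, 549 (KO-carried 287) and 538 (253, 102). Leaving out KO 3 weeks replicate 3 and KO 10 weeks replicate 1, which stood apart for Myl7, Myl4 and Sln, gave 456 calls. They were not the highest KO libraries for Nppa, and this exclusion was also chosen after seeing the data. The other normalizations, filters and tools gave 458 to 507. The cause of these differences was not tested.

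Leaving out 1 library at a time gave 271 to 1030 calls, 146 to 550 up and 107 to 480 down. The KO-carried counts ran from 60 to 293 up and 41 to 219 down, and the WT-carried from 59 to 128 up and 33 to 102 down. The fewest calls came without WT 10 weeks replicate 3, the most without KO 10 weeks replicate 3. A replicate block gave 427 calls, 378 of them shared. Same-numbered libraries correlated by -0.228 to 0.0946 in their deviations from the group means, and differently numbered ones by -0.168 to 0.289. No pairing by number was seen, and whether equal numbers share a litter or batch is not in the labels.

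Of the named genes none that passed the test changed direction. Values that had not passed reversed for Car3, Cd4 and Csf3r, and for the atrial genes Myl4, Myl7 and Sln. Without 1 library they ran from -0.57 to 6.12 for Car3, -0.23 to 0.78 for Cd4, -0.43 to 0.23 for Csf3r, -2.05 to 7.35 for Myl4, -3.05 to 8.20 for Myl7 and -2.70 to 9.86 for Sln. The negative values of all but Csf3r came without KO 10 weeks replicate 1. Without both KO libraries that stood apart for Myl7, Myl4 and Sln, the shift was -0.14 for Car3, -0.10 for Cd4 and 0.44 for Csf3r. Csf3r also reversed to 0.05, 0.08 and 0.16 in single exclusions.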
